A study of Caenorhabditis elegans with 18 samples.

Results

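The genes described here encode 9 enzymes and partner proteins that modify, fold, cleave or crosslink collagen in the nematode Caenorhabditis elegans. They are dpy-18, phy-2 and pdi-2 (hydroxylation and folding), bli-4 and dpy-31 (propeptide cleavage), and bli-3, doxa-1, tsp-15 and mlt-7 (tyrosine crosslinking). They were chosen by name, from what their products are known to do, and joined by symbol to the WormBase identifiers of the count table. All 9 were found among the 23368 genes of the table, and all 9 had enough counts to be tested, out of 10981 genes tested in all. All 9 also passed that filter with the libraries of nhr-45 in antimycin left out.

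As background, the nematode cuticle is an extracellular matrix built largely of collagens that the epidermis secretes anew at each moult. In the endoplasmic reticulum, prolyl 4-hydroxylase hydroxylates prolines of the procollagen chains, which stabilises the triple helix, and disulfide isomerases and chaperones assist folding. Proteases then remove the propeptides, and a dual oxidase supplies hydrogen peroxide with which peroxidases link tyrosines of neighbouring chains. Loss of these functions in C. elegans is known for short (dumpy) or blistered bodies and for failed moults, which gave several of the genes their names.

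RNA was sequenced from whole animals at the early adult stage. The 3 genotypes were the wild-type strain N2 (WT), nhr-45(tm1307) and nhr-178(gk1005), the mutants each carrying an allele of a nuclear hormone receptor gene. Larvae of each genotype were raised to adulthood on E. coli HT115 with either 0.3 µM antimycin A, which blocks complex III of the mitochondrial respiratory chain, or its solvent DMSO alone. There were 3 libraries for each of the 6 combinations, hence 18, from at least 1000 animals a sample after an 18 hour arrest at the first larval stage. No group lacks the bacterial diet or the arrest, and each mutant is represented by a single allele, whose effect on the protein the labels do not give. The series text names biological triplicates, but whether the libraries came from separate cultures is not stated, so p-values speak of the spread among these libraries, which may be technical.

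The shallowest library, nhr-45 in antimycin replicate 2, held 1772887 counts and the deepest, WT in DMSO replicate 3, held 9488037. WT in antimycin replicate 1 was also shallow, at 3143437. Levels below are counts scaled by library size (CPM) with TMM factors. A gene is called changed where its adjusted p in edgeR's quasi-likelihood test is below 0.05. The targeted genes gave no check of the genotypes. The nhr-45 transcript was counted at 3.33 to 5.82 CPM in nhr-45 in DMSO against 4.51 to 6.71 in WT, and nhr-178 had at most 11 counts in any library. Transcripts of the 6 vitellogenin genes, which adults express, summed to at least 2299 CPM in each library.

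Antimycin left the 9 genes uncalled in WT and raised 4 of them in nhr-45. In nhr-45 the called genes were dpy-18, bli-4, doxa-1 and mlt-7, all higher, so that hydroxylation, cleavage and crosslinking each held at least 1 of them. These 4 of 9 stand beside 15.2% of all tested genes called higher in that comparison, and the median log2 fold change was 0.56 over the 9 genes and 0.00 over all tested genes. The antimycin and DMSO libraries of nhr-45 did not overlap for any of the 4, as was so for 35.99% of all tested genes. In WT, 0 of 9 were called against 3.01% of tested genes in either direction, with 1 of 9 at an unadjusted p below 0.05 in edgeR. In nhr-178, 0 of 9 were called against 2.7% of tested genes, again with 1 at an unadjusted p below 0.05, and DESeq2 also called 0 in both genotypes.

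**Figure D1:**
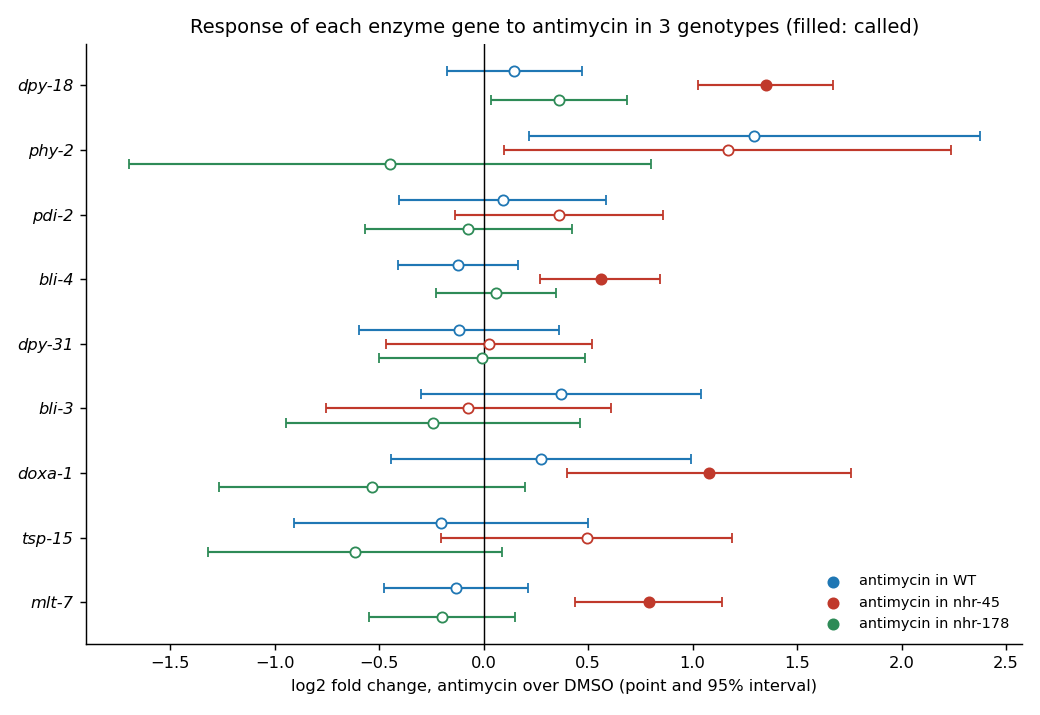
Log2 fold change of antimycin over DMSO for each of the 9 genes in WT, nhr-45 and nhr-178, as the fitted value (point) with its 95% interval (bar) from edgeR. Filled points are called. The filled points are dpy-18 at 1.35, doxa-1 at 1.08, mlt-7 at 0.79 and bli-4 at 0.56, all in nhr-45.

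The levels of the genes differed widely. Per kilobase of merged exon length, pdi-2 stood highest with a median of 484 CPM per kilobase over the 18 libraries. It was followed by dpy-18 at 25.9, bli-4 at 14, mlt-7 at 11.6 and dpy-31 at 11 CPM per kilobase. The lowest were tsp-15 at 5.97, doxa-1 at 4.23, bli-3 at 1.84 and phy-2 at 1.27 CPM per kilobase. The catalytic subunits of prolyl 4-hydroxylase were thus far apart, and the oxidase bli-3 was counted below both of its partner proteins.

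**Figure D2:**
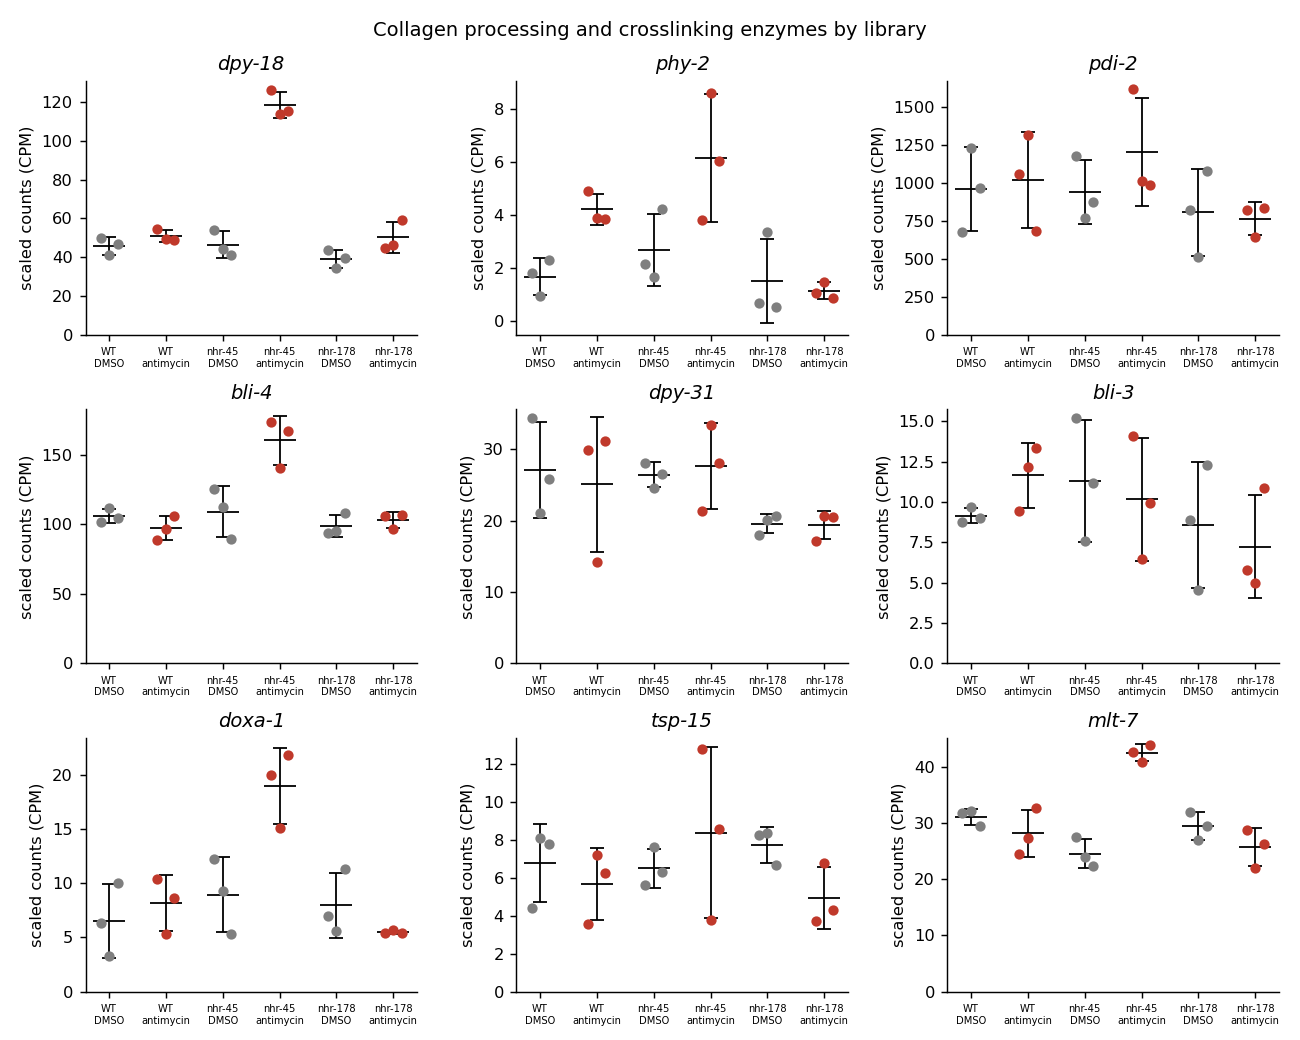
Scaled counts (CPM) of each of the 9 genes in every library, with the group mean (long line) and SD (bar) over 3 libraries; grey points are DMSO and red points antimycin. The 3 libraries of nhr-45 in antimycin lie above the other 15 for dpy-18, bli-4, doxa-1 and mlt-7, and overlap the others for the remaining 5 genes.

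The hydroxylation gene dpy-18 (WBGene00001077, chromosome III, 11372886 to 11377980, minus strand, WBcel235) encodes a catalytic alpha subunit of prolyl 4-hydroxylase. In nhr-45 it was at 54.1, 44.3 and 41 CPM in DMSO, and in antimycin at 126, 114 and 116 CPM. Every antimycin library was above every DMSO library, and above the libraries of all other groups, which ended at 59.1 CPM. The log2 fold change was 1.35 ± 0.16 (SE), or 2.55-fold, with an adjusted p of 3.0e-07 in edgeR. In WT the libraries were at 49.7, 40.9 and 46.5 CPM in DMSO, and in antimycin at 54.3, 49.2 and 48.6 CPM. These ranges overlapped, and the log2 fold change of 0.15 had a 95% interval of -0.18 to 0.47. In nhr-178 the values were 43.4, 34.4 and 39.7 CPM in DMSO against 44.8, 46.5 and 59.1 CPM in antimycin. Those ranges did not overlap, but the log2 fold change of 0.36 was not called, with an unadjusted p of 0.0321 and an adjusted p of 0.328 in edgeR. Among all tested genes, 18.2% had ranges that did not overlap in that comparison.

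The other alpha subunit gene, phy-2 (WBGene00004025, chromosome IV, 12211097 to 12215987, minus strand), was sparse, with 3 to 35 counts a library. In WT it was at 1.78, 0.917 and 2.27 CPM in DMSO, and in antimycin at 4.88, 3.87 and 3.84 CPM. The WT groups did not overlap, as was so for 20.1% of tested genes, and the log2 fold change of 1.30 ± 0.53 (SE) was not called (adjusted p of 0.229 in edgeR). In nhr-45 it was at 2.13, 1.64 and 4.19 CPM in DMSO, and in antimycin at 3.79, 8.60 and 6.0 CPM, ranges that overlapped, with a log2 fold change of 1.17 ± 0.52 (SE) and an adjusted p of 0.105. In nhr-178 it was at 0.651, 3.33 and 0.499 CPM in DMSO, and in antimycin at 1.03, 1.47 and 0.858 CPM. The fold change there was uncertain, with a 95% interval of -1.70 to 0.80 in log2. phy-2 was therefore not called for antimycin in any genotype, and its intervals were the widest of the 9 genes in each.

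The third gene of this step, pdi-2 (WBGene00003963, chromosome X, 4524155 to 4526536, plus strand), encodes a protein disulfide isomerase that also serves as the beta subunit of prolyl 4-hydroxylase. It ranked 182 of the tested genes by mean level. Its libraries ranged from 512 to 1615 CPM, and neighbouring groups in the order of means overlapped. For antimycin its log2 fold change was 0.09 in WT, 0.36 in nhr-45 and -0.07 in nhr-178, and the 95% interval in nhr-45 was -0.14 to 0.86. Neither a rise nor a lack of one could be shown for pdi-2 at this spread between libraries.

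Within a library, the subunits of the hydroxylase did not keep one proportion. The ratio of dpy-18 to pdi-2, per kilobase, was 0.0806 to 0.121 in nhr-45 in antimycin and 0.0343 to 0.0758 in the other 15 libraries. The ratio of dpy-18 to phy-2 was 10.5 to 12 in WT in antimycin, below the 19.3 to 42.1 of WT in DMSO, while in nhr-45 the ranges of 9.23 to 25.5 in DMSO and 12.5 to 31.5 in antimycin overlapped. These ratios are given as descriptions, with no test, and those to phy-2 rest on few counts.

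**Figure D3:**
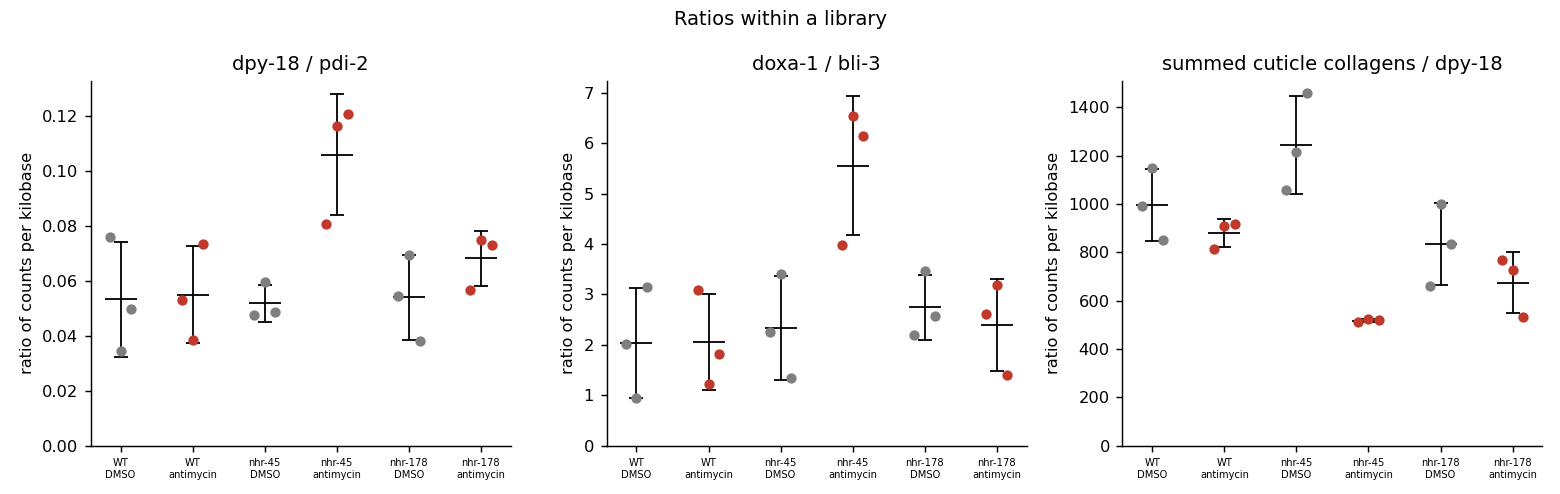
Ratios of counts per kilobase within each library for dpy-18 over pdi-2, doxa-1 over bli-3, and 172 cuticle collagen genes summed over dpy-18, with the group mean (long line) and SD (bar) over 3 libraries; grey points are DMSO and red points antimycin. In nhr-45 in antimycin the first ratio is at least 0.0806, the second at least 3.99 and the third at most 524.3, without overlap with the other 15 libraries. The nearest of those are WT in DMSO replicate 1 (0.0758), nhr-178 in DMSO replicate 2 (3.46) and nhr-178 in antimycin replicate 3 (532.6).

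The cleavage gene bli-4 (WBGene00000254, chromosome I, 6342224 to 6356680, plus strand) encodes a subtilisin-like proprotein convertase, with 11 annotated transcripts that the gene counts do not separate. Levels in nhr-45 were 125, 113 and 89.4 CPM in DMSO, and in antimycin they were 174, 140 and 167 CPM. All antimycin libraries were above all DMSO libraries. The log2 fold change was 0.56 ± 0.14 (SE), or 1.47-fold, with an adjusted p of 0.00478 in edgeR. In WT bli-4 was at 102, 112 and 104.4 CPM in DMSO, and in antimycin at 88.5, 96.7 and 106 CPM, with a 95% interval of -0.41 to 0.17 in log2. In nhr-178 the interval was -0.23 to 0.35, around levels of 94.0 to 108 CPM in DMSO and 96.5 to 107 CPM in antimycin. bli-4 shares 67 of 7570 exon bases with mut-2, on the opposite strand, which had 770 counts in all, so a small part of its counts is uncertain where strand was not used.

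The other protease gene, dpy-31 (WBGene00006592, chromosome III, 7202206 to 7207664, plus strand), encodes an astacin metalloprotease known to cleave the C-terminal propeptide of the cuticle collagen SQT-3. It was not called in any comparison. Libraries of nhr-45 were at 28.1, 24.6 and 26.5 CPM in DMSO, and in antimycin at 21.3, 33.3 and 28.1 CPM, with a log2 fold change of 0.03 and a 95% interval of -0.47 to 0.52. The interval was -0.60 to 0.36 in WT and -0.50 to 0.49 in nhr-178, so a doubling lay outside the interval in each genotype.

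The transcript of its substrate rose in nhr-45 with antimycin. In nhr-45, sqt-3 was at 20.5, 12.4 and 48.9 CPM in DMSO, and in antimycin at 929.7, 400.1 and 1104 CPM. The lowest antimycin library was thus above the highest DMSO library by several times, and the log2 fold change was 4.95 ± 0.44 (SE), with an adjusted p of 1.5e-09 in edgeR. In WT sqt-3 was at 24.0, 13.9 and 13.2 CPM in DMSO, and in antimycin at 66.7, 18.1 and 30.9 CPM, ranges that overlapped. The other known substrate of the protease, the collagen gene dpy-17, was too sparse to test. It had 0 counts in both WT groups and in nhr-45 in antimycin, and 5, 6 and 11 summed counts in nhr-45 in DMSO, nhr-178 in DMSO and nhr-178 in antimycin.

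**Figure D4:**
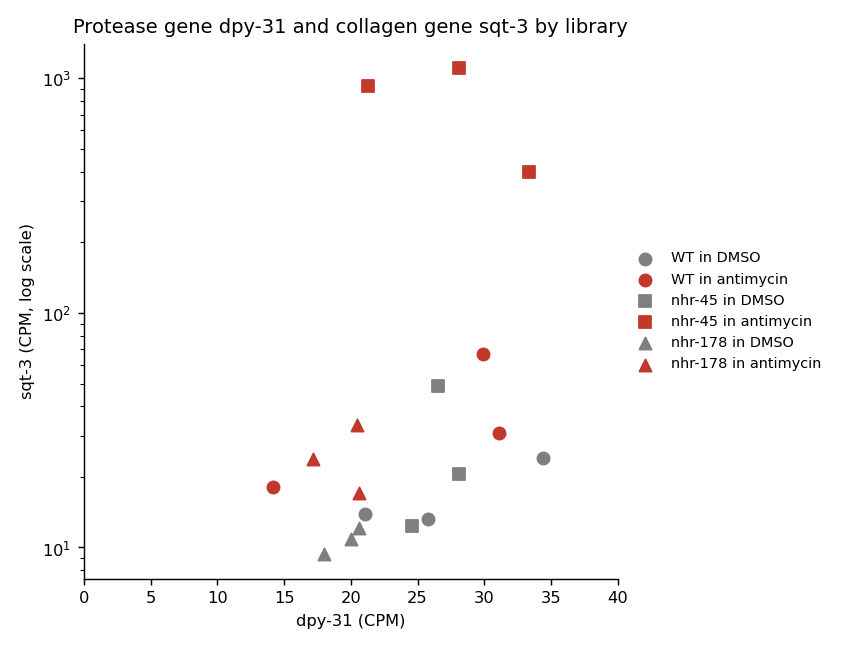
Scaled counts of the protease gene dpy-31 (x axis, CPM) against its substrate gene sqt-3 (y axis, CPM, log scale) in the 18 libraries, by genotype (shape) and treatment (colour). The 3 libraries of nhr-45 in antimycin reach 400.1 to 1104 CPM for sqt-3, while their dpy-31 levels of 21.3 to 33.3 CPM lie inside the range of the other libraries.

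The crosslinking gene bli-3 (WBGene00000253, chromosome I, 145968 to 154855, minus strand) encodes the dual oxidase. Its libraries ranged from 4.55 to 15.2 CPM, and neighbouring groups in the order of means overlapped. The nhr-45 libraries stood at 15.2, 7.61 and 11.2 CPM in DMSO, and in antimycin at 14.1, 6.45 and 9.95 CPM. The log2 fold change was -0.07 there, with a 95% interval of -0.76 to 0.61, and 0.37 in WT and -0.24 in nhr-178. The neighbouring paralog duox-2 had 0 counts in all 18 libraries, which allows up to 0.325 to 1.61 CPM in a library for counting error alone. How the authors' counting divided reads between these similar genes is not stated.

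The maturation factor of the oxidase, doxa-1 (WBGene00015519, chromosome III, 8581102 to 8583910, plus strand), rose in nhr-45. It was at 12.2, 9.24 and 5.36 CPM in DMSO, and in antimycin at 20.0, 15.1 and 21.8 CPM, without overlap. The log2 fold change was 1.08 ± 0.33 (SE), or 2.11-fold, with an adjusted p of 0.0188 in edgeR. This call rested on single libraries: the adjusted p was 0.0861 without replicate 3 in DMSO, 0.0558 without replicate 1 in antimycin and 0.0776 without replicate 3 in antimycin. In WT doxa-1 was at 6.29, 3.27 and 10.1 CPM in DMSO, and in antimycin at 10.4, 5.34 and 8.67 CPM, with a 95% interval of -0.44 to 0.99 in log2. In nhr-178 the values were 6.95, 5.61 and 11.3 CPM in DMSO and 5.37, 5.65 and 5.43 CPM in antimycin, with an interval of -1.27 to 0.20.

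Its partner in the oxidase complex, the tetraspanin gene tsp-15 (WBGene00006641, chromosome I, 8928750 to 8931089, plus strand), was not called. In the nhr-45 mutant this gene was at 5.59, 7.61 and 6.29 CPM in DMSO, and in antimycin at 12.8, 3.76 and 8.58 CPM, so its antimycin libraries lay on both sides of the DMSO range. The lowest of them, replicate 2, had 7 counts. The log2 fold change was 0.49, with a 95% interval of -0.20 to 1.19, and -0.21 in WT and -0.62 in nhr-178. tsp-15 shares 57 of 1125 exon bases with madd-4 on the opposite strand.

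The proportion of the oxidase gene to its maturation factor was not the same in every library. The ratio of doxa-1 to bli-3, per kilobase, was 3.99 to 6.55 in nhr-45 in antimycin and 0.948 to 3.46 in the other 15 libraries. The ratio of tsp-15 to bli-3 showed no such gap, at 2.69 to 4.18 in nhr-45 in antimycin and 1.70 to 4.61 in nhr-45 in DMSO.

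The peroxidase gene mlt-7 (WBGene00022743, chromosome II, 4393007 to 4404850, plus strand) encodes a haem peroxidase that acts with BLI-3 and is needed for moulting. In nhr-45 it was at 27.4, 23.9 and 22.4 CPM in DMSO, and in antimycin at 42.6, 40.9 and 43.9 CPM. Antimycin libraries were above all DMSO libraries and spread little among themselves. The log2 fold change was 0.79 ± 0.17 (SE), or 1.73-fold, with an adjusted p of 0.0013 in edgeR. In WT mlt-7 was at 31.7, 32.1 and 29.4 CPM in DMSO, and in antimycin at 24.4, 27.3 and 32.7 CPM, with an interval of -0.48 to 0.21. In nhr-178 it was at 31.9, 27 and 29.4 CPM in DMSO, and in antimycin at 28.7, 22.1 and 26.3 CPM, with an interval of -0.55 to 0.15.

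Without antimycin the mutants showed no called change in these genes. In nhr-45 against WT in DMSO, 0 of 9 were called beside 1.54% of tested genes, with 0 at an unadjusted p below 0.05 in edgeR and 0 called by DESeq2. The gene nearest to a difference was mlt-7, which was lower in nhr-45 without overlap, by 0.33 on the log2 scale, with an unadjusted p of 0.0569 and an adjusted p of 0.483. In nhr-178 against WT in DMSO, 0 of 9 were called beside 1.15% of tested genes, with 0 at an unadjusted p below 0.05 in edgeR and 0 by DESeq2. There dpy-31 was lower without overlap, at 18.0, 20.0 and 20.6 CPM against 34.4, 21.1 and 25.8 CPM in WT, with an unadjusted p of 0.0565 and an adjusted p of 0.512. Ranges did not overlap for 14.98% and 17.2% of tested genes in these comparisons.

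Within antimycin the genes that were higher in nhr-45 than in WT were again dpy-18, bli-4, doxa-1 and mlt-7. These comparisons share the nhr-45 antimycin libraries with those above. The 4 of 9 stand beside 10.7% of tested genes called higher. The log2 differences in edgeR were 1.23 ± 0.16 (SE) for dpy-18 with an adjusted p of 1.6e-06, and 0.73 ± 0.14 for bli-4 with an adjusted p of 0.00047. That of doxa-1 was 1.27 ± 0.34 with an adjusted p of 0.0101, which was 0.0826 without replicate 2 of WT. That of mlt-7 was 0.59 ± 0.17 with an adjusted p of 0.0181, and its call was lost without replicate 1 of WT (0.0966), replicate 2 of WT (0.0788), replicate 1 of nhr-45 (0.0533) or replicate 3 of nhr-45 (0.0613).

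In nhr-178 against WT within antimycin, 0 of 9 were called beside 3.63% of tested genes, with 2 at an unadjusted p below 0.05 in edgeR. Those were phy-2 and bli-3. phy-2 was at 1.03, 1.47 and 0.858 CPM in nhr-178 and at 4.88, 3.87 and 3.84 CPM in WT, without overlap, as was so for 20.5% of tested genes. Its log2 difference was -1.84 ± 0.57 (SE), with an adjusted p of 0.0712 in edgeR and of 0.0373 in DESeq2. The call thus depended on the tool, at 24 summed counts in nhr-178 and 63 in WT. For bli-3 the log2 difference was -0.71, with an unadjusted p of 0.045 and an adjusted p of 0.304.

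The interaction tests whether the response to antimycin in a mutant differed from the response in WT. For nhr-45 the differences called were those of dpy-18, mlt-7 and bli-4, 3 of 9 beside 3.39% of tested genes called higher. For dpy-18 the response was larger in nhr-45 by 1.204 ± 0.22 (SE) on the log2 scale, with an adjusted p of 0.00112 in edgeR, and leaving out any of the 12 libraries in turn kept that call. For mlt-7 it was larger by 0.92 ± 0.24 with an adjusted p of 0.0235. Part of that value is the lower level of mlt-7 in nhr-45 than in WT in DMSO, by 0.33, which was not called. The mlt-7 call was kept without replicate 3 of WT in DMSO, replicate 1 of nhr-45 in DMSO, replicate 3 of WT in antimycin or replicate 2 of nhr-45 in antimycin, and lost without any one of the other 8 libraries, at adjusted p of 0.0503 to 0.063. For bli-4 it was larger by 0.68 ± 0.20 with an adjusted p of 0.0453, a call kept without replicate 1 of nhr-45 in DMSO or replicate 2 of nhr-45 in antimycin and lost without any one of the other 10, at 0.0577 to 0.119. For doxa-1 the difference of 0.80 had a 95% interval of -0.18 to 1.79 and was not called. For nhr-178, 0 of 9 differed from WT beside 0.264% of tested genes, with 1 (phy-2) at an unadjusted p below 0.05 in edgeR and 0 called by DESeq2.

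Other genes of hydroxylation, folding and secretion were counted in a list of 22, of which 21 could be tested. In nhr-45 antimycin raised 5 and lowered 1 of the 21, with a median log2 fold change of 0.10. Over all 10981 tested genes it raised 1670 (15.2%) and lowered 915 in nhr-45, which stand beside this and the lists below. In WT and nhr-178 antimycin changed 0 of the list in either direction, with 5 and 2 at an unadjusted p below 0.05 in edgeR. DESeq2 called 1 of the list in nhr-178. The largest rises were in fkb-4, fkb-3 and fkb-5, which encode FK506-binding prolyl isomerases. In DMSO fkb-4 was at 0.87 ± 0.66 CPM and in antimycin at 7.13 ± 2.6 CPM (SD, n = 3), with an adjusted p of 0.000426 in edgeR. fkb-5 was at 17.2 ± 1.5 and 31.2 ± 2.7 CPM, with an adjusted p of 0.00278. The others were crt-1 (calreticulin) and let-268 (procollagen lysyl hydroxylase), and the gene that fell was tmem-39, by 0.49 on the log2 scale. With no filter on low counts the list gave 3 rises, and without replicate 2 of nhr-45 in DMSO it gave 2 falls. The prolyl 4-hydroxylase gene phy-3 was not called for antimycin in nhr-45, at 2.08 ± 1.4 and 4.56 ± 3.5 CPM (SD, n = 3), with an adjusted p of 0.27. Within antimycin it was called higher in nhr-45, at 2.84, 8.60 and 2.23 CPM, than in WT, at 0.325, 0.553 and 0.995 CPM. The log2 difference was 2.52 ± 0.75 (SE), with an adjusted p of 0.0196 in edgeR, on 53 and 11 summed counts. That call was lost without replicate 1 of WT (0.0596), replicate 2 of WT (0.0738) or replicate 2 of nhr-45 (0.108), and without both shallow libraries the difference was 1.68 (0.207).

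Of 5 tested genes that encode other oxidases, peroxidases or their regulators, antimycin in nhr-45 raised skpo-2, skpo-3 and memo-1 and lowered skpo-1. skpo-2 and skpo-3 encode peroxidases of the same family as MLT-7, and MEMO-1 is a regulator of BLI-3. In DMSO skpo-3 was at 12.4 ± 3.7 CPM and in antimycin at 23.2 ± 7.8 CPM (SD, n = 3), with an adjusted p of 0.00419 in edgeR. skpo-2 had 5 summed counts in DMSO and 70 in antimycin. It passed the filter on low counts only with the libraries of nhr-45 in antimycin, where it is high, so its call is a description. Of the 5 genes, 4 passed without those libraries, and 2 of these rose and 1 fell. skpo-1 moved the other way, from 20.3 ± 5.5 to 11.1 ± 2.8 CPM, with an adjusted p of 0.0138, and its call was lost without replicate 1 of nhr-45 in DMSO or replicate 3 in antimycin. The 3 rises became 1 without replicate 1 of nhr-45 in antimycin.

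Of 11 tested genes for other proteases and inhibitors, antimycin in nhr-45 raised 7 and lowered 1. The rises included nas-7 and nas-37, astacin proteases like DPY-31, of which NAS-37 is needed to shed the old cuticle. The level of nas-7 was 16.9 ± 8.7 CPM with DMSO, against 72.9 ± 8.3 CPM with antimycin (SD, n = 3), with an adjusted p of 1.5e-06 in edgeR. nas-37 was at 12.6 ± 2.6 and 30.8 ± 2.5 CPM, with an adjusted p of 2.1e-05. The 3 with the largest fitted changes, mlt-11, nas-6 and nas-36, had 2, 6 and 6 summed counts in DMSO and 48, 65 and 30 in antimycin. These 3 passed the filter on low counts only with the libraries of nhr-45 in antimycin, where they are high. Their calls, which are among the 7, are therefore a description. The convertase gene kpc-1 rose from 28.6 ± 2.1 to 54.1 ± 26 CPM, with an adjusted p of 0.0046 in edgeR. Its libraries in that group were far apart, while its SD was at most 3.46 CPM in any other group. The mean may thus rest largely on 1 library, and the rise of kpc-1 is given as a description. The 7 rises became 4 without replicate 1, or without replicate 2, of nhr-45 in antimycin, and 4 with the stricter filter. Of the 11 genes, 8 passed the filter on low counts also with the libraries of nhr-45 in antimycin left out, and 4 of these rose. The cathepsin Z gene cpz-1 fell in each genotype and was the only call of this list in WT and in nhr-178. Its level in WT was 123 ± 6.2 CPM with DMSO, against 72.3 ± 6.8 CPM with antimycin, with an adjusted p of 0.00122.

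The interaction with nhr-45 was called, besides the enzymes above, for 1 of 21 tested hydroxylation, folding and secretion genes (crt-1). It was also called for 1 of 5 oxidases and peroxidases (skpo-2) and 2 of 11 proteases and inhibitors (nas-7 and nas-37). Of all tested genes, 3.39% were called higher in that comparison. crt-1, skpo-2, nas-7 and nas-37 each had a higher log2 fold change for antimycin in nhr-45 than in WT. For crt-1 and skpo-2 the mean level fell with antimycin in WT and rose in nhr-45. skpo-2 passed the filter on low counts only with the libraries of nhr-45 in antimycin, so its call is a description. crt-1 was at 785 ± 24 and 600.3 ± 61 CPM in WT in DMSO and antimycin and at 655 ± 65 and 900.1 ± 131.2 CPM in nhr-45 (SD, n = 3), with an adjusted p of 0.00424 in edgeR.

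**Figure D5:**
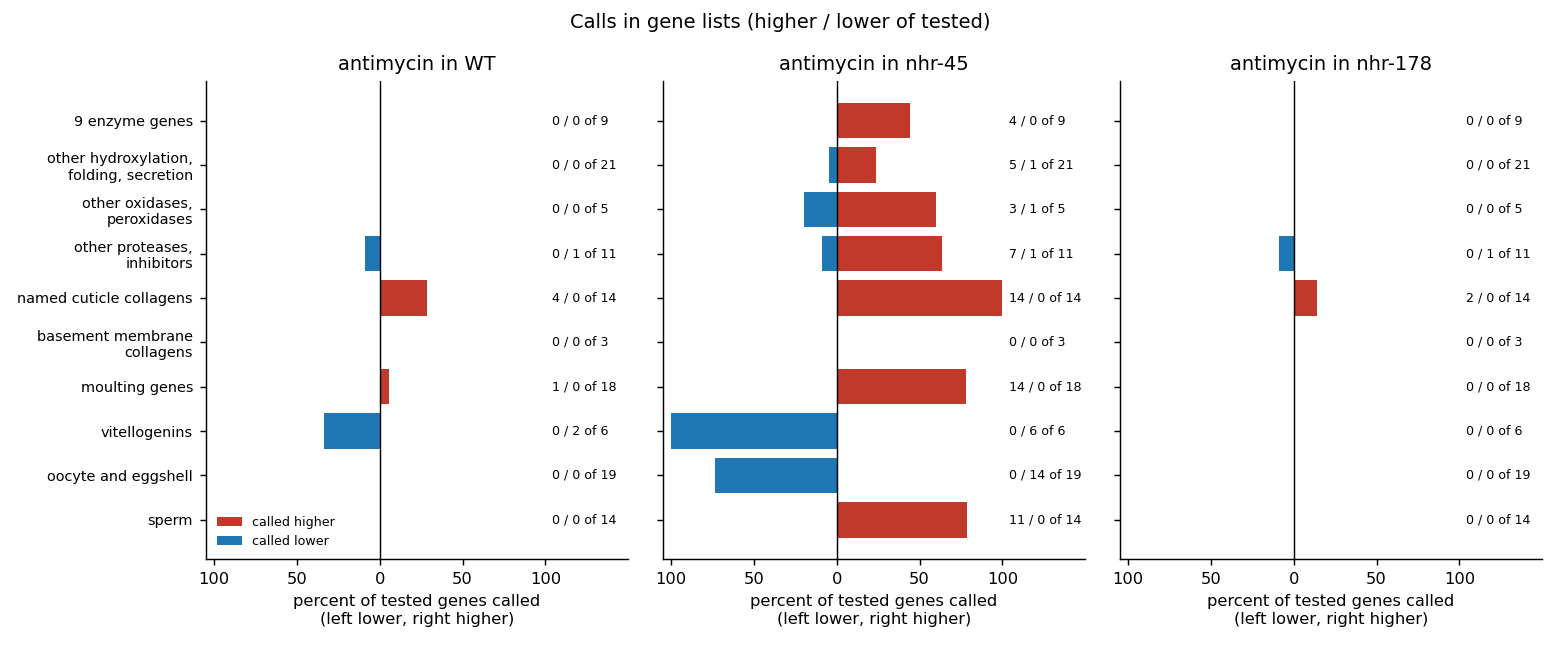
Percent of tested genes in each list called higher (red, right) or lower (blue, left) for antimycin against DMSO in WT, nhr-45 and nhr-178, with the counts higher / lower of tested beside each bar. In nhr-45 the 9 enzyme genes have 4 higher, while the 3 basement membrane collagens have none called. Of the 14 named cuticle collagens, 7 passed the filter on low counts only with the libraries of nhr-45 in antimycin, where they are high. Other bars share this limit. Without those libraries, 11 of 18 moulting genes, 6 of 14 sperm genes, 8 of 11 other proteases and inhibitors and 4 of 5 other oxidases and peroxidases passed. Bars of these lists in nhr-45 are therefore descriptions.

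Collagens are the substrates of these enzymes. Of 21 named cuticle collagens, 14 could be tested, and 7 of these passed the filter on low counts only with the libraries of nhr-45 in antimycin, where they are high, so that they had to differ. Calls among the 14 are therefore a description. The other 7 passed it without those libraries, a count chosen after seeing the data, and antimycin in nhr-45 raised these 7, while a stricter filter on low counts gave 5 calls. In WT antimycin raised 4 of the 14 (7 with no filter and 2 with the stricter one), and in nhr-178 it raised 2, a count that fell to 0 without any one of 4 nhr-178 libraries: replicates 1 and 3 in DMSO and replicates 2 and 3 in antimycin. Of the 3 basement membrane collagen genes, 0 were called in any genotype, with 0 in nhr-45, 0 in nhr-178 and 1 in WT at an unadjusted p below 0.05 in edgeR, and 0 by DESeq2, although 1 was called in nhr-45 without replicate 1 in DMSO. The summed level of 172 cuticle collagen genes over dpy-18, per kilobase, was 510.9 to 524.3 in nhr-45 in antimycin and 532.6 to 1462 in the other libraries. The ratio was thus lower in that group than in nhr-45 in DMSO, where it was 1060 to 1462, while single collagens such as sqt-3 rose by more than dpy-18. Over the 9 genes summed, per kilobase, the ratio was 35.2 to 49.2 in nhr-45 in antimycin and 44.07 to 61.7 in nhr-45 in DMSO. Those ranges overlapped, and pdi-2, the highest of the 9 genes, weighs most in that sum. Both ratios are descriptions with no test.

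Markers of other tissues and stages moved in the same group, and their part in the results for the enzymes was not tested. In bulk samples fewer cells of a type and less RNA per cell cannot be told apart. In nhr-45 in antimycin, the 18 moulting genes summed to 479 to 543 CPM, against 129.9 to 186 in the other groups. Of the 18, 11 passed the filter on low counts also without the libraries of that group, and 7 of these 11 were called higher. The 10 hypodermis markers summed to 609 to 1351 CPM against 152 to 247, but 3 of them are cuticle collagen genes, among them sqt-3. The other 7 summed to 204.9, 231.5 and 239.7 CPM, against 134.3 to 211.9 in the other groups, ranges that overlapped, and 3 of the 7 markers of the whole list that passed the filter without the libraries of that group were called higher. Sperm genes summed to 116 to 138 CPM against 22.1 to 48.5, where 6 of the 29 genes passed the filter without the libraries of that group and 3 of these were called higher. Oocyte and eggshell genes summed to 9015 to 10150 CPM against 12180 to 17220, with 14 of 19 called lower, and vitellogenins to 2299 to 3151 CPM against 4703 to 9302, with 6 of 6 lower. Over all 10981 tested genes, 915 were called lower and 1670 higher for antimycin in nhr-45. In nhr-45 in antimycin, 1 of the 29 sperm genes in the table had no counts, and 0 of the moulting, hypodermis, oocyte and vitellogenin genes. Intestine markers summed to 3003 to 3285 CPM and body wall muscle markers to 8307 to 10690 CPM in that group, inside the ranges of 1834 to 4346 and 5241 to 11040 CPM in the others. Against DMSO in the same genotype, the intestine sum was higher without overlap (2007 to 2118 CPM in DMSO), with 5 of 11 genes called higher and 1 lower. The muscle sum overlapped that in DMSO (7242 to 9188 CPM), with 3 of 10 genes called higher, or 5 without replicate 2 in antimycin. With the stricter filter on low counts, 7 moulting, 3 hypodermis and 1 sperm gene were called higher. The 3 adult cuticle collagens summed to 245 to 278 CPM against 91.2 to 224.5. The moulting list shares nas-36, nas-37 and mlt-11 with the protease list, and the hypodermis list shares sqt-3, dpy-7 and rol-6 with the collagens and wrt-10 with the moulting list.

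The 9 genes varied among themselves without a single shared pattern. Over the 18 libraries the Pearson correlations of log2 CPM for the 36 pairs had a median of 0.318 and ran from -0.325 to 0.863, and the libraries share depth and group. The highest pair was dpy-18 with bli-4 at 0.863, followed by mlt-7 with bli-4 at 0.806 and dpy-18 with doxa-1 at 0.765. These pairs are of the 4 genes called in nhr-45. The same 3 libraries are high for all 4, so their correlations are no separate finding. The pair mlt-7 with doxa-1, at 0.607, was below pdi-2 with bli-3, at 0.654. The tested genes most like dpy-18 were ZK180.5 (0.968), the collagen gene col-157 (0.965) and nspb-9 (0.959). Those most like mlt-7 were mlt-9 (0.899), feh-1 (0.896) and swt-5 (0.892), and those most like doxa-1 were argk-1 (0.896), fbn-1 (0.874) and Y11D7A.9 (0.873). bli-4 was most like skr-5 and cyc-2.2 (both 0.932) and srw-86 (0.929), genes near the floor. They had 0 CPM in at least 1 library and at most 2.92, 10.5 and 5.66 CPM. col-157, nspb-9, mlt-9, swt-5, argk-1 and fbn-1 also had 0 CPM in at least 1 library. Each gene named as most like dpy-18, mlt-7, doxa-1 or bli-4 had a log2 fold change of at least 2.37 for antimycin in nhr-45. The same 3 libraries can raise these correlations, which are no separate finding either. For phy-2 the nearest were mlc-1 (0.878), dim-1 (0.867) and epic-2 (0.85), for bli-3 pezo-1 (0.857), for dpy-31 ttr-48 (0.83), for pdi-2 F46H5.7 (0.808) and for tsp-15 F23A7.5 (0.759). These correlations are descriptions over 18 libraries and carry no p.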

How the data were processed

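The deposited table holds whole-number gene counts for the 18 libraries, and each column matched a sample by its title. Bowtie2, RSEM, DESeq2 and R 3.6.3 are named, without their roles, per the submitters' processing notes. What build, annotation and strand setting the authors used, and how they treated multiply mapping reads, is not given in the sources used here. RSEM gives estimated counts, so the deposited counts may have been rounded, and reads of paralogs or overlapping genes may be split in unknown ways.

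Counts were fitted with edgeR 4.0.16 in R 4.3.3 (quasi-likelihood test with TMM scaling, 1 mean per group, filterByExpr by group and 12 residual degrees of freedom), and p-values were adjusted by Benjamini-Hochberg over 10981 genes within a comparison. All tests are two-sided. An SE is the log2 fold change over the square root of F. Steps were tested on simulated data. The floor for a gene with no counts is 3 counts in a library, for counting error only. Each library counts as 1 replicate. The chi-square over its degrees of freedom between libraries of a group was 5.69 to 18.9, more than counting error alone gives. That value does not show whether the libraries came from separate cultures.

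Positions and exon lengths come from the WBcel235 annotation, joined by identifier. The replicate numbers were not treated as pairs, since 0 of 15 group pairs had all 3 correlations of same-numbered libraries above 0.1 (median 0.005). The alternatives were DESeq2 1.42.0, other scalings and filters, the compared groups alone, a replicate block, and leaving out libraries. Named were all 9 genes, up to 3 called genes of each list with the largest fold change for antimycin in WT, in nhr-45 and in the interaction, the genes sqt-3, dpy-17, phy-3, duox-2, nhr-45 and nhr-178, and the 3 genes most like each of the 9; the text gives part of this set. Outside that rule, let-268, tmem-39, memo-1 and kpc-1 were named after their values were seen. The genes, lists and tests were chosen with earlier results of these data known. Promoter and protein sequences were not analysed here.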

Additional observations from a re-analysis of the deposited data

Results flagged for a closer look

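Results flagged here are responses to antimycin that differed between genotypes, by the interaction term of edgeR's quasi-likelihood test. The response was larger in nhr-45 than in WT for dpy-18, by 1.204 on the log2 scale, for mlt-7, by 0.92, and for bli-4, by 0.681. Only the call of dpy-18 was kept when each of the 12 libraries was left out in turn. That of mlt-7 was lost in 8 of these cases and that of bli-4 in 10. In each of these genes the 3 libraries of nhr-45 in antimycin lay above the libraries of the other 5 groups. Single libraries within groups were not examined for outlying values, because each group holds 3.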

How the results depend on the processing

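Over the alternatives, 1177 of 1214 values of the 9 genes stayed on their side of the threshold, 34 lost a call, 3 gained one and 0 reversed. The calls of dpy-18 held in all alternatives run. The number of the 9 genes called for the nhr-45 interaction was 1 with no filter, 1 without both shallow libraries and 1 to 3 without single libraries. For nhr-45 against WT in antimycin it was 2 to 4 without single libraries. For nhr-178 against WT in antimycin it was 1 (phy-2) with DESeq2, with no filter and with the compared groups only. Over all genes, nhr-45 against WT in DMSO gave 169 calls, but 262 with no filter, 95 with the compared groups only and 100 to 153 without single libraries. For nhr-178 against WT in DMSO the 126 calls became 196 with DESeq2, 219 with no filter and 63 to 94 without single libraries. For nhr-45 against WT in antimycin the 1654 calls became 1006 with the stricter filter of 1 CPM in 9 libraries. The 29 calls of the nhr-178 interaction became 66 with DESeq2, 103 with no filter and 9 to 41 without single libraries. Without single libraries the calls were 173 to 314 for antimycin in WT (330 with all), 196 to 279 for antimycin in nhr-178 (297), 225 to 354 for nhr-178 against WT in antimycin (399) and 335 to 506 for the nhr-45 interaction (514). The causes were not tested. With a replicate block, calls for antimycin were 326 in WT, 2563 in nhr-45 and 296 in nhr-178; among the 9 genes the block ended 1 call, the bli-4 interaction (log2 0.68, adjusted p of 0.0537 in edgeR). Depth limits phy-2 most, at 3 to 35 counts a library.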
